A study of Mus musculus with 34 samples.

Results

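The genes described here are the solute carriers of the mouse cornea, outside the glucose (Slc2a), bicarbonate (Slc4a) and monocarboxylate (Slc16a) families. They were chosen by symbol and by intensity: a probe set with 1 gene symbol beginning with Slc and a digit was kept where it lay above its array's median on at least 2 of 32 whole-cornea arrays, and the brightest kept probe set stood for the gene. This kept 198 of 328 such genes on the array and left out 130, and 36 further genes belong to the families set aside. In all, 12998 genes passed the same filter. Since intensity chose the members, a gene that passed only through the ages at which it was high could not but differ between ages. Counts over the 198 are therefore given as descriptions, beside the share of all 12998 genes. The test results of such genes are descriptions too, also where this is not repeated. They include members whose arrays at 1 of the ages compared all lay below the medians of the filter (225 to 265). Among these are Slc28a3, Slc1a1, Slc5a8 and Slc25a35 at E15.5, and Slc34a2, Slc6a14, Slc19a2 and Slc9a7 at E14.5. Of the members, 65 lay above the median on all 32 arrays. Just inside the limit were 8 genes above the median on exactly 2 arrays, among them Slc8a1, Slc25a10, Slc25a23 and Slc6a12, and just outside it 13 genes above on 1 array, among them Slc7a11, Slc38a3, Slc22a4 and Slc6a4. Some members are no transporters or were put in no substrate class. Slc9a3r1 and Slc9a3r2 encode scaffold proteins, Slc7a6os is a separate gene on the strand opposite Slc7a6, and Slc49a4 and Slc66a2 stand in no class.

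Whole corneas of wildtype CB6 mice, with no treatment named and dissected free of the globe, were profiled on expression arrays. The ages before birth were E14.5, E15.5 and E17.5 (embryonic days) and P3, P7, P14 and P28 are days after birth; these and 2 months had 3 arrays each, and there were 2 each at 6 months, 1 year, 18 months and 2 years. A further array held epithelium of P28, lifted off with dispase, and another held stroma of P7, cut out of sections by laser. Whether replicate arrays came from separate animals is not given in the labels, so a p-value here reflects how far these samples spread, and that spread may be technical. Values are probe-set intensities on a linear scale, and differences are on the scale log2(intensity + 16), with the standard error (SE) of 1 limma fit over the 32 arrays and p-values adjusted over 12998 genes. A gene was called, and is said to have risen or fallen, at an adjusted p under 0.05 with a difference of at least 1 log2 unit.

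Solute carriers are membrane proteins that move nutrients, ions, metabolites and metals across the plasma membrane and the membranes of organelles. Many are driven by the sodium gradient that the sodium pump maintains, others by protons or by exchange of one solute for another. The cornea has no blood vessels, so its epithelium, keratocytes and endothelium take up solutes from tears, aqueous humour and the vessels at its rim.

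The sequences just before the start of 4 members are shown, chosen after their values were seen: Slc34a2, Slc6a14 and Slc28a3 were each called higher at more than 1 age step, and Slc35f2 had the highest F statistic over the 12 ages. They are RefSeq's, on build GRCm38.p6, each 250 bases long and written 5′ to 3′ on the gene's own strand: chr5:53049103-53049352 (plus strand) for Slc34a2, chrX:21714650-21714899 (plus) for Slc6a14, chr13:58610878-58611127 (minus) for Slc28a3 and chr9:53771285-53771534 (plus) for Slc35f2. Capitals mark the letters CACCC on either strand (GGGTG on the other), a core that Krüppel-like factors bind.
Slc34a2: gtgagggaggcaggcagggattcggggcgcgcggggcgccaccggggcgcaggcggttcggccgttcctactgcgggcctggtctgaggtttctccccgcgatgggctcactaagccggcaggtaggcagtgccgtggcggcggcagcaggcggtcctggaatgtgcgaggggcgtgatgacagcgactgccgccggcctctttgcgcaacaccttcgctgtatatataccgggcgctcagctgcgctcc
Slc6a14: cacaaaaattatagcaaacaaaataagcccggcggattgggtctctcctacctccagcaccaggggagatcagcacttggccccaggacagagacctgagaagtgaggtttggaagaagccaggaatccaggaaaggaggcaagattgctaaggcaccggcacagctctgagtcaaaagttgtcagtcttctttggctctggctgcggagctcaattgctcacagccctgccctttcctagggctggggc
Slc28a3: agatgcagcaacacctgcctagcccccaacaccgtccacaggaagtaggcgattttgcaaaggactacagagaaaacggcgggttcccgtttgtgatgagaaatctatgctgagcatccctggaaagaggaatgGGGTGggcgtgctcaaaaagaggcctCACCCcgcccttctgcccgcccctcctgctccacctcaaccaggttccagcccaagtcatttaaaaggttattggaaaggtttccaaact
Slc35f2: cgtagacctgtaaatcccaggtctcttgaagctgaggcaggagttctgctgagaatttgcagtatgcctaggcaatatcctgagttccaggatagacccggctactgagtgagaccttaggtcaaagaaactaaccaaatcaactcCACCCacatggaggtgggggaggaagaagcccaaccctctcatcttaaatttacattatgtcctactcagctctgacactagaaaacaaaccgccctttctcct
The window of Slc28a3 held 2 matches, that of Slc35f2 held 1, and those of Slc34a2 and Slc6a14 held none. Their GC content was 69.6% for Slc34a2, 54.0% for Slc6a14, 53.6% for Slc28a3 and 47.6% for Slc35f2. A window was given for 157 members, and CACCC was found in 101 of them (64.3%), against 51.3% of the windows of 27025 genes. The Ets motif CGGAAG was found in 28 (17.8%, against 13.8% of all) and the E-box CACGTG in 18 (11.5%, against 6.05%). The motif TGATGNAAT, bound by Atf4, was found in no member's window and in 0.825% of all. A match says only that the letters are there.

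Whole-cornea arrays had median intensities of 188 to 241. Replicate arrays (28 pairs) correlated across genes, on the log2 scale, with r from 0.879 to 0.985. Lens genes were high on E14.5 replicates 2 and 3, P14 replicate 2, 2 months replicate 1 and 6 months replicate 2, retina genes on 2 months replicates 1 and 2 and 6 months replicate 1, and muscle genes on E17.5 replicates 1 and 3. There were 8 probe sets without a name that divided the arrays: the 18 up to P14 all had at least 1501, and the 14 from P28 on had at most 12.8, while the 2 layer arrays read 127 to 186. No label names what divides the arrays there, and between P14 and P28 it cannot be told apart from age. In these bulk samples, fewer cells of a type and less RNA per cell cannot be told apart either.

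Over the 12 ages 94 of 198 members were called by the moderated F-test (47.5%, against 40.6% of all genes), with a median range between ages of 0.98 log2 units, against 0.87 over all genes. Within the 6 ages from E14.5 to P14 44 members were called (22.2%, against 19.6%), and within the 6 ages from P28 on 21 (10.6%, against 6.77%). Of the 94, 57 had their highest mean at P28 or later (60.6%, against 54.6% of all genes called by that test), 26 before birth (27.7%, against 36.7%) and 11 between P3 and P14 (11.7%, against 8.69%). The lowest mean was before birth for 53 (56.4%, against 47.6%) and at P28 or later for 32 (34%, against 38.9%). By class, the shares called over the 12 ages were 17 of 30 for amino acids, 9 of 15 for sodium, potassium, chloride, calcium and protons, and 14 of 29 for metals and heme. They were 11 of 23 for nucleotide sugars and organelle substrates, 5 of 11 for neurotransmitters and osmolytes, 4 of 8 for choline, lipids and bile acids, 4 of 10 for phosphate, sulfate and other anions, and 2 of 4 for sugars. The mitochondrial carriers had 13 of 35 and the carriers of vitamins, nucleosides, peptides and organic ions 11 of 29.

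Between E14.5 and E15.5, 16 members were called, 12 higher and 4 lower (8.08%, against 10.4% of all genes; higher 7.35%, lower 3.1%). With each array centred on its median the split was 10 higher and 6 lower. From E15.5 to P14, 13 were called, 12 higher and 1 lower (6.57%, against 5.19%; higher 3.21%, lower 1.98%). From P14 to P28, 16 were called, 9 higher and 7 lower (8.08%, against 7.65%; higher 4.15%, lower 3.5%), and 6 higher and 7 lower after quantile normalization. The median of all genes at that step was 0.11, and so was that of the members. Over 4 comparisons, these 3 steps and that of old with young adults, 35 members were called in at least 1 and 10 in more than 1. No such count was made over all genes, so whether these 2 counts are particular to the carriers was not tested. The 3 steps share the E15.5 and P14 arrays, so a gene's values in them are not independent. The arrays of the 2 ages did not overlap for 15 of 16, 13 of 13 and 16 of 16 called members, against 95.9%, 98.4% and 97.9% of all called genes.

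**Figure D1:**
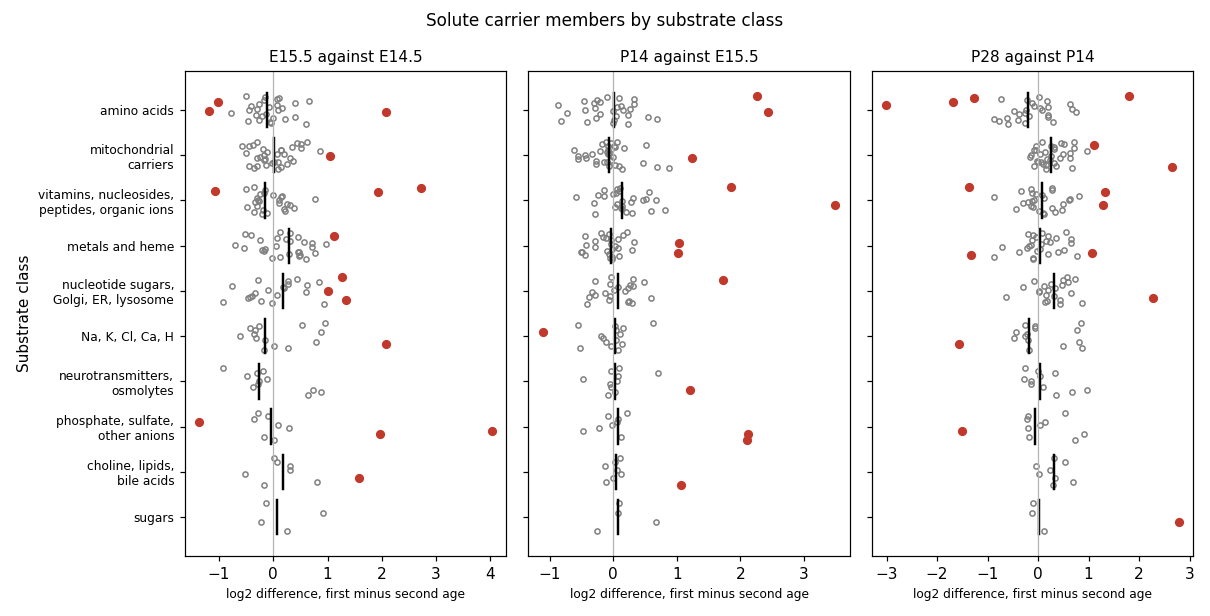
Log2 differences of the members by substrate class at 3 age steps; each circle is a gene, filled where it was called, and the short bar is the class median. The class medians lie near 0, and the called genes stand apart from them, up to 4.03 for Slc26a7; at these steps sugars and the carriers of neurotransmitters and osmolytes have 1 called gene each.

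Among amino acid carriers, Slc6a14, a sodium- and chloride-coupled carrier of neutral and cationic amino acids, rose at both of the earlier steps. Its arrays read 101, 64.8 and 47.2 at E14.5, 206, 483 and 394 at E15.5, and 2536, 1717 and 1618 at P14. Each later group lay wholly above the one before it. It rose by 2.08 (SE 0.51, adjusted p = 0.00276) from E14.5 to E15.5 and by 2.44 (SE 0.51, adjusted p = 0.00156) from E15.5 to P14. At P28 its arrays read 4068, 5089 and 1608, which overlap those of P14 (difference 0.74, adjusted p = 0.289). At E17.5 they read 257, 53.7 and 271, so that E17.5 against E14.5 gave 1.06 (adjusted p = 0.122) in place of the 2.08 at E15.5.

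Slc1a1, a sodium-coupled glutamate and aspartate carrier of neurons and epithelia, rose from E15.5 to P14 and again from P14 to P28. It read 54.9, 29.3 and 23.1 at E15.5, 241, 204 and 230.4 at P14, and 1077, 1337 and 385 at P28. The groups did not overlap, and the differences were 2.27 (SE 0.38, adjusted p = 1.6e-04) and 1.80 (SE 0.38, adjusted p = 9.6e-04). Its glial relative Slc1a3 went the other way at the second of these steps, from 654, 532 and 495 at P14 to 200, 230.1 and 231 at P28 (log2 difference -1.28, SE 0.20, adjusted p = 4.9e-05), and stayed between 155 and 253 on every later array.

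Slc38a4, a system A carrier of neutral amino acids, had the largest fall among the members. Its arrays read 434 to 1379.9 from E14.5 to E17.5, 586 to 1010.5 at P3 and P7, and 754, 428 and 391.7 at P14. At P28 they read 47.7, 46.9 and 51.8, and on the 11 arrays from 2 months on between 25.6 and 108. The difference of P28 from P14 was -3.002 (SE 0.30, adjusted p = 1.7e-07), and every P28 array lay below every P14 array. All arrays from P28 on lay below the medians of the filter (225 to 265). Slc38a4 was thus a member only through the earlier arrays, where it was high, and its p-value is a description. Slc38a1, another system A carrier, read 508, 749 and 442 at P14 and 213, 108 and 181 at P28 (log2 difference -1.68, SE 0.30, adjusted p = 2.1e-04). It was also lower at E15.5, with 875, 512 and 594, than at E14.5, with 1259, 1277 and 1461 (log2 difference -1.03, SE 0.30, adjusted p = 0.0104). That earlier call is fragile: the gene's other kept probe set gave -0.27, and the call was lost without E14.5 replicate 3 (-0.96), E15.5 replicate 2 (-0.87) or E15.5 replicate 3 (-0.97), and E17.5 against E14.5 gave -0.28 (adjusted p = 0.507).

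Slc7a6, which with a partner chain exchanges cationic for neutral amino acids, was lower at later ages in small steps, none of them called. Its means were 580.2 ± 73.5 at E14.5, 418 ± 64.9 at E15.5, 230.4 ± 51.9 at P14 and 127 ± 10.1 at P28 (SD, n = 3 each), and 107 ± 15.2 at 2 years (n = 2). Over the 12 ages it was called by the F-test (adjusted p = 5.2e-11). Slc43a3, grouped here by its family and known as a purine nucleobase carrier, was lower at E15.5 than at E14.5 by 1.18 (log2 difference -1.18, SE 0.27, adjusted p = 0.00125), but its arrays overlapped: 1032, 1263 and 532 against 633, 261 and 337. Of the 30 genes of the amino acid class, Slc7a6os among them, 3 were called at E15.5 (1 higher, 2 lower), 2 at P14 (both higher) and 4 at P28 (1 higher, 3 lower), with class medians of -0.11, 0.01 and -0.20. The shares called were 10%, 6.67% and 13.3%, against 10.4%, 5.19% and 7.65% of all genes.

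The largest rise of any member was that of Slc26a7, an anion exchanger and chloride channel, at E15.5. It read 239, 63.3 and 41.5 at E14.5 and 1581, 1545 and 2020.2 at E15.5, a difference of 4.03 (SE 0.54, adjusted p = 3.2e-06). Every array from E15.5 to P14 read between 641 and 2309, whereas the P28 arrays read 379, 506 and 378. The step from P14 to P28 gave -1.51 (SE 0.54, adjusted p = 0.0343), and this call was lost when any of P14 replicate 1, P14 replicate 2 or the 3 P28 arrays was left out (adjusted p between 0.0509 and 0.15). In the adult it was 629, 948 and 584 at 2 months, 39.2 and 234 at 6 months, 629 and 366 at 1 year, 92.7 and 112 at 18 months, and 32.6 and 190.2 at 2 years.

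Slc34a2, a sodium-coupled phosphate carrier of epithelial surfaces, read 25.7, 37.4 and 35.5 at E14.5, 95.6, 151 and 349 at E15.5, and 1034, 762 and 662 at P14. The 3 groups did not overlap. It rose by 1.96 (SE 0.39, adjusted p = 4.3e-04) and then by 2.12 (SE 0.39, adjusted p = 4.7e-04). At P28 it read 2022, 2270.4 and 773 (difference 0.91, adjusted p = 0.0811), and at 2 years 2031 and 2242. The ubiquitous phosphate carrier Slc20a1 went the opposite way before birth, from 772, 1012 and 683 to 324, 351 and 251 (log2 difference -1.36, SE 0.17, adjusted p = 1.6e-06). Its mean was 309 ± 51.4 at E15.5 (SD, n = 3) and 622 ± 77.9 at 2 years (n = 2), with no later comparison called. Slc20a2, its close relative, did not pass at any step or over the 12 ages (adjusted p = 0.208).

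Slc5a8, a sodium-coupled carrier of short-chain fatty acids, lactate and iodide, read 72.1, 130.3 and 73.8 at E15.5 and 592, 336 and 407 at P14 (difference 2.10, SE 0.32, adjusted p = 5.2e-05). Slc5a1, the sodium-coupled glucose carrier SGLT1, was called at the next step. Its 18 arrays up to P14 lay between 85.0 and 179, and it read 1967, 2230.3 and 440.0 at P28. The step from P14 to P28 was 2.79 (SE 0.44, adjusted p = 4.5e-05) with no overlap. The 18 earlier arrays lay below the medians of the filter (225 to 265). Slc5a1 was thus a member only through later arrays, where it was high, and its p-value is a description. The 3 other sugar carriers were not called at any step. Among them Slc50a1, a sugar efflux carrier of the Golgi, differed by 0.91 (adjusted p = 2.1e-04) between E15.5 and E14.5, under the 1 log2 unit asked of a call.

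**Figure D2:**
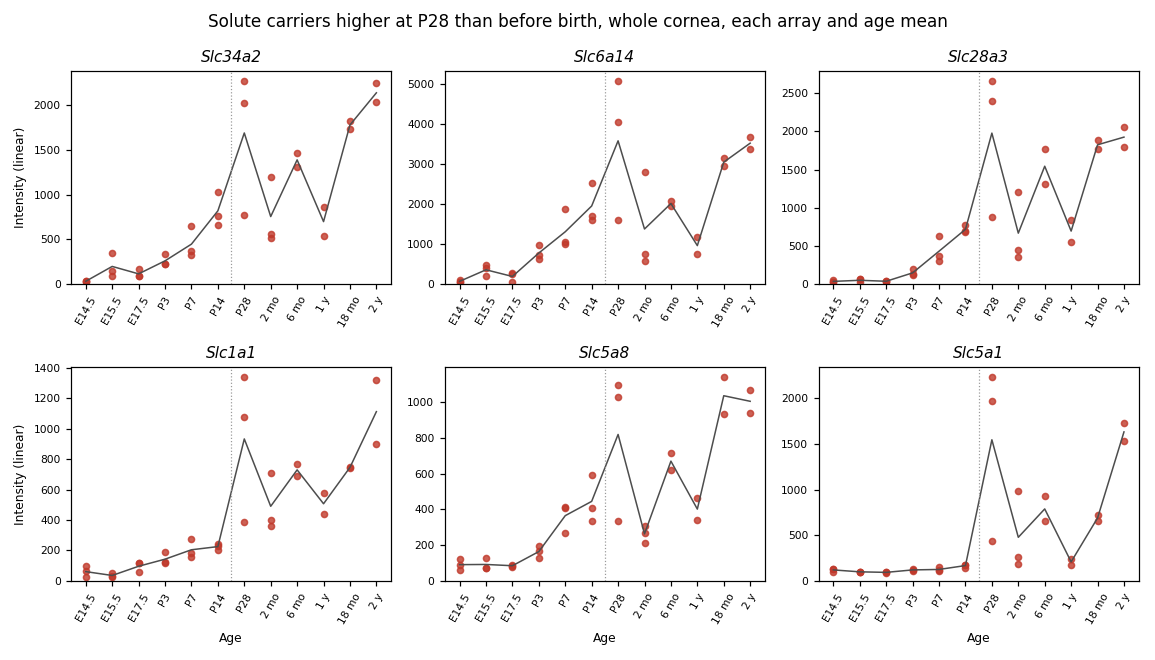
Intensity (linear axis) of 6 members that were higher at P28 than before birth, against age; points are arrays, the line joins age means, and the dotted line stands between P14 and P28, where the 8 unnamed probe sets divide the arrays. All 6 reach their highest means at P28 or later, with P28 replicate 3 the lowest of its age and with lower means at 2 months and 1 year than at P28.

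Carriers of vitamins, nucleosides, peptides and urea held 4 of the genes with large differences. Slc28a3, a concentrative nucleoside carrier, had the largest rise of any member from E15.5 to P14. It read 28.3, 61.6 and 63.6 at E15.5, 198, 116 and 131 at P3, 369.8, 627 and 299 at P7, and 781, 696 and 677 at P14. The difference of P14 from E15.5 was 3.496 (SE 0.38, adjusted p = 5.4e-07). Its E15.5 arrays lay below the medians of the filter (225 to 265), so that it was a member only through other arrays and its p-value is a description. At P28 it read 2391, 2659.7 and 877, higher by 1.29 (SE 0.38, adjusted p = 0.0111), a call lost without P28 replicate 1 (1.08, adjusted p = 0.0646), without P28 replicate 2 (1.00, adjusted p = 0.076) and after quantile normalization (0.95, adjusted p = 0.0761).

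Slc19a2 and Slc19a1, carriers of thiamine and of reduced folate, moved apart at E15.5. Slc19a2 read 123, 74.3 and 92.8 at E14.5 and 244, 504 and 545 at E15.5 (difference 1.93, SE 0.26, adjusted p = 3.8e-06). Slc19a1 read 999.9, 1019.9 and 808 at E14.5 and 384, 461 and 475 at E15.5 (log2 difference -1.07, SE 0.20, adjusted p = 2.1e-04). The fall of Slc19a1 was smaller on its other kept probe set (-0.27) and was -0.98 without E15.5 replicate 1, short of the 1 log2 unit. Slc19a2 rose again at P28, from 629, 626 and 582 to 1337, 1479.9 and 1888 (difference 1.32, SE 0.26, adjusted p = 5.3e-04; 0.97 after quantile normalization), and it read between 779 and 1402 on all 11 later arrays.

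Slc15a2, a proton-coupled peptide carrier, read 238, 77.7 and 45.2 at E14.5 and 591, 787 and 834 at E15.5 (difference 2.72, SE 0.56, adjusted p = 5.0e-04). The 2 low E14.5 arrays were those rich in lens genes, and without the arrays rich in another tissue the difference was 1.55 (adjusted p = 0.151). Slc14a1, a urea carrier, rose from 233, 101 and 145 at E15.5 to 397, 1096 and 474 at P14 (difference 1.86, SE 0.47, adjusted p = 0.00708) and was lower again at P28, with 260.4, 135 and 300.1 (log2 difference -1.36, SE 0.47, adjusted p = 0.0293). Its highest arrays before the adult were those of P7, with 1645, 1813 and 1026. Both calls were lost without P14 replicate 2, a lens-rich array (1.43, adjusted p = 0.0582, and -0.93, adjusted p = 0.198), and the second also without P28 replicate 2 (-1.04, adjusted p = 0.146). Slc46a2, a carrier of this class just inside the intensity limit, with 3 arrays above the median, had means of 60.5 ± 0.599 at E17.5 and 212 ± 80.1 at P28 (SD, n = 3 each).

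Among carriers of sodium, potassium, chloride, calcium and protons, Slc9a7, a sodium/proton exchanger of the trans-Golgi network, read 70.1, 126 and 139 at E14.5 and 395, 446 and 744 at E15.5 (difference 2.08, SE 0.37, adjusted p = 1.2e-04). It peaked at P7, with 1307, 646 and 1166, and fell between P14 and P28, from 906, 444 and 445 to 206, 179 and 159.9 (log2 difference -1.56, SE 0.37, adjusted p = 0.00264). Slc24a3, a potassium-dependent sodium/calcium exchanger, was the only member called lower at P14 than at E15.5: 353, 383 and 552 against 168, 216 and 181 (log2 difference -1.11, SE 0.21, adjusted p = 7.2e-04; -0.92 without E15.5 replicate 3). Slc12a2, the basolateral sodium, potassium and chloride cotransporter NKCC1, was higher at later ages in steps below the limit of a call. Its means were 1092 ± 176 at E14.5, 2119.6 ± 276 at E15.5, 3271 ± 399 at P14 and 5886 ± 800.5 at P28 (SD, n = 3 each), and the steps were 0.95, 0.62 and 0.84 (adjusted p = 6.0e-04, 0.029 and 0.00233). Slc8b1, the mitochondrial sodium/calcium exchanger, had means of 186 ± 19.4 at E14.5 and 547 ± 55.8 at P28.

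**Figure D3:**
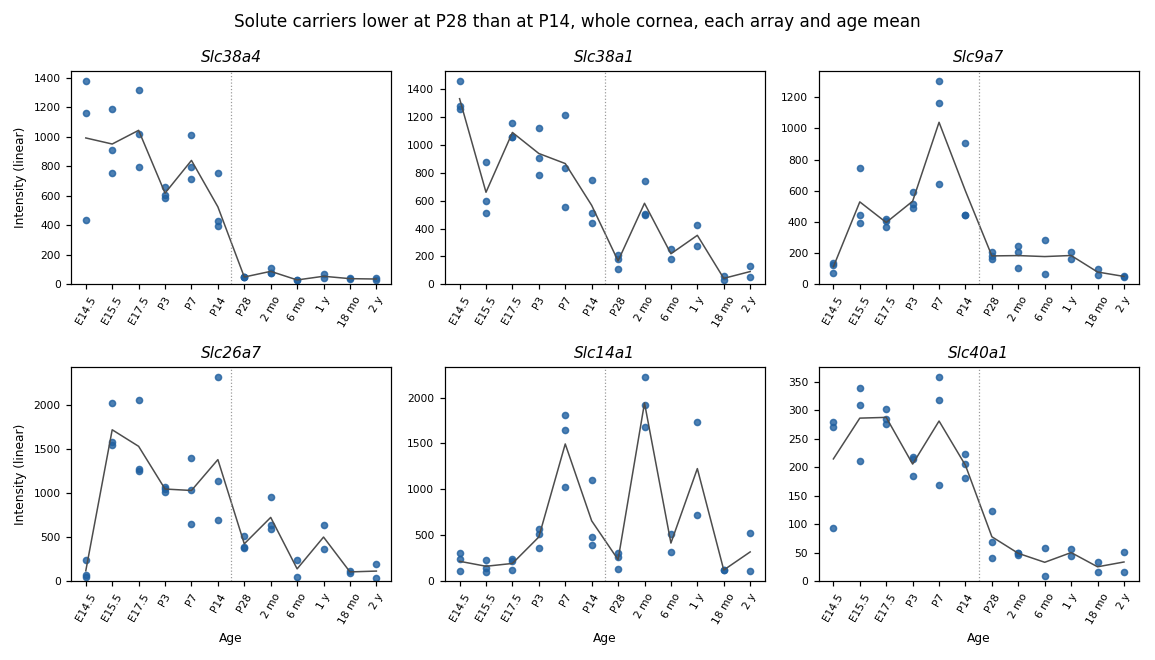
Intensity (linear axis) of 6 members that were lower at P28 than at P14, against age; points are arrays, the line joins age means, and the dotted line stands between P14 and P28, where the 8 unnamed probe sets divide the arrays. Slc38a4 and Slc40a1 stay low on all later arrays, while Slc14a1, Slc38a1 and Slc26a7 read higher at 2 months and 1 year than at 6 and 18 months.

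Of the 29 metal and heme carriers 1 was called at E15.5, 2 at P14 and 2 at P28 (3.45%, 6.9% and 6.9%, against 10.4%, 5.19% and 7.65% of all genes). Slc31a2, a copper carrier of late endosomes and lysosomes, had little spread between arrays. It read 384, 457 and 306 at E14.5, 570.1, 602 and 716 at E15.5, 1350.0, 1348 and 1216 at P14, and 2090.2, 2008 and 2082 at P28, with no overlap between these ages. P14 against E15.5 gave 1.04 (SE 0.14, adjusted p = 1.0e-05), and the steps to either side gave 0.71 and 0.65. Slc39a8, a carrier of zinc, manganese and iron, rose at P14 by 1.01 (adjusted p = 0.0169) and at P28 by 1.07 (adjusted p = 0.00735), to 1413, 1515 and 1284. Slc30a4, a zinc exporter into vesicles, rose at E15.5 by 1.12 (adjusted p = 7.1e-04), from 332, 461 and 286 to 645, 699 and 1075.

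Slc40a1, ferroportin, the iron exporter, fell: it read 224, 205 and 181 at P14 and 69.1, 124 and 40.4 at P28 (log2 difference -1.32, SE 0.39, adjusted p = 0.011), and 57.6 or less on every later array. Without P28 replicate 3 the difference was -1.01 (adjusted p = 0.0761). All arrays from P14 on lay below the medians of the filter (225 to 265). Slc40a1 was thus a member only through earlier arrays, where it was high, and its p-value is a description. Slc39a13, a zinc carrier of the Golgi that connective tissue cells need, had means of 570.4 ± 68.5 at P14 and 340.1 ± 26.7 at P28 (SD, n = 3 each; log2 difference -0.72, adjusted p = 0.00102), and Slc41a1, a magnesium carrier, had 329 ± 29.5 and 567 ± 30.9 (0.76, adjusted p = 5.4e-05). Both differences are under the size of a call. Metal-response genes, which encode metallothioneins and iron and copper handling proteins, were listed apart: of 10 tested, 2 rose and 2 fell at E15.5, 2 rose at P14 and none was called at P28.

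Of the 35 mitochondrial carriers 1 was called at E15.5, 1 at P14 and 2 at P28, all higher. The shares called were 2.86%, 2.86% and 5.71%, against 10.4%, 5.19% and 7.65% of all genes. Slc25a48, an inner-membrane carrier, lay between 69.2 and 187 on the 18 arrays up to P14 and read 1094, 1706 and 632 at P28 (difference 2.65, SE 0.27, adjusted p = 2.1e-07), with no overlap. Those 18 lay below the medians of the filter (225 to 265). It was thus a member only through later arrays, and its p-value is a description. Slc25a35, another inner-membrane carrier, read 92.8, 108 and 90.2 at E15.5 and 249, 246 and 259 at P14 (difference 1.24, SE 0.17, adjusted p = 1.3e-05). Slc25a13, the aspartate/glutamate carrier citrin, rose at P28 by 1.12 (adjusted p = 4.3e-04), from 291, 294 and 266 to 537, 653 and 723, and Slc25a32, a folate and flavin carrier, rose at E15.5 by 1.05 (adjusted p = 4.5e-05). Slc25a5, the adenine nucleotide carrier ANT2, was not called at any step and had means of 1598 ± 152 at E15.5, 2950.2 ± 262 at P14 and 4696 ± 376 at P28 (SD, n = 3 each; steps of 0.88 and 0.67, adjusted p = 1.1e-04 and 9.8e-04). Its 3 kept probe sets gave the second of these steps as 0.67, 0.63 and 0.61.

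Of the 23 carriers of nucleotide sugars and other substrates of the Golgi, endoplasmic reticulum and lysosome, 3 were called at E15.5, all higher (13%, against 10.4% of all genes). Slc35f5 rose by 1.35 (SE 0.14, adjusted p = 8.5e-08), Slc17a5, the lysosomal sialic acid exporter sialin, by 1.27 (adjusted p = 4.3e-05), and Slc35c1, the GDP-fucose carrier of the Golgi, by 1.01 (adjusted p = 2.1e-05). Slc35a1, the CMP-sialic acid carrier of the Golgi, rose between E15.5 and P14, from 389, 303 and 357 at E15.5 to 1114, 1246 and 1203 at P14 (difference 1.72, SE 0.23, adjusted p = 1.2e-05). Slc35f2, a carrier of queuine, had the highest F statistic among the members (90.6). It lay between 42.6 and 115 on the 18 arrays up to P14 and between 352 and 1154 on the 14 arrays from P28 on. The 18 lay below the medians of the filter (225 to 265). It was thus a member only through the other 14, and its F and p-values are descriptions. The step from P14, with 115, 80.9 and 100.5, to P28, with 482, 657 and 491, was 2.28 (SE 0.21, adjusted p = 4.3e-08), and it falls where the 8 unnamed probe sets divide the arrays. Slc37a1, a sugar phosphate exchanger, had means of 337 ± 78.2 and 621 ± 43.2 at these ages (0.87, adjusted p = 1.7e-04).

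Slc6a6, the taurine carrier, read 948, 975 and 1174 at E15.5, 2388, 2389 and 2451 at P14, and 3506, 4343 and 6989.9 at P28. It rose by 1.22 (SE 0.21, adjusted p = 1.7e-04) from E15.5 to P14, and the next step was 0.97 (adjusted p = 9.6e-04). Slc6a8, the creatine carrier, had means of 227 ± 80.1 at E14.5 and 676 ± 41 at P28 (SD, n = 3 each), with no step called. Of the choline carriers, Slc44a1 rose at E15.5, from 672, 1066 and 443 to 1914, 2237 and 2062 (difference 1.57, SE 0.36, adjusted p = 0.00135), and Slc44a4 at P14 by 1.07 (adjusted p = 0.00384). Slc44a2, their relative, was called only over the 12 ages, with means of 304 ± 55.6 at E14.5 and 1005 ± 59.1 at 18 months (n = 2). Slc49a4, in no class, rose at P28 by 1.06 (adjusted p = 5.5e-06), to 1183, 1460.2 and 1456, and the scaffold genes Slc9a3r1 and Slc9a3r2 gave 0.81 (adjusted p = 0.00626) and -0.69 (adjusted p = 0.00163) there.

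Markers of cell types moved at the same steps. From E14.5 to E15.5 11 of 12 epithelial and 11 of 14 stromal markers rose (medians 2.48 and 2.78), while 11 of 16 lens, 4 of 4 blood and 19 of 20 cell cycle genes fell. The summed intensity of the blood list was 22816 to 33178 at E14.5 but 603 to 1148 at E15.5, and that of the lens list 7452 to 108490 and then 2532 to 2809. From E15.5 to P14 4 of 20 cell cycle, 2 of 7 endothelial, 2 of 9 retina, 2 of 7 leukocyte and 1 of 12 epithelial genes rose, and of 14 stromal markers 2 rose and 1 fell. From P14 to P28 8 of 14 stromal markers fell and 1 rose (median -1.5), 3 of 7 markers of the corneal endothelium fell (median -1.19) and 1 of 12 epithelial markers rose (median 0.55). None of these markers was at 0 on a whole-cornea array. Without the arrays rich in another tissue, which leaves 1 array at E14.5, 12, 12 and 16 members were called at the 3 steps (and 8.51%, 5.48% and 7.07% of all genes), of which 12, 12 and 15 were also called with all arrays. The part of these cell types in the differences of the carriers was not tested.

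Of the 21 members called within the ages from P28 on, 8 had their highest mean of the 12 ages at 2 years, 4 at 18 months and 3 at P28. The same peaks were not counted over all genes, so whether they are particular to the carriers was not tested. The next 6 were picked from the 21 after their values were seen, and whether they vary together was not tested. Slc28a3 had means of 1976 ± 961 at P28, 668 ± 466 at 2 months (SD, n = 3 each), 1543 ± 319.9 at 6 months, 695 ± 205 at 1 year, 1823 ± 86.8 at 18 months and 1924 ± 178 at 2 years (n = 2 each). Slc34a2 had 1688, 755, 1388, 699, 1777 and 2136 at the same ages, Slc5a8 had 819.9, 263, 670.5, 402, 1037 and 1006, and Slc5a1 had 1546, 477, 788, 208, 689 and 1632. Slc14a1, with 232, 1942, 413, 1226, 119 and 316, was highest at 2 months, as was Slc38a1, with 167, 581, 219, 351, 42.0 and 91.0. All 6 were called by the F-test within these ages (adjusted p = 0.00709, 0.0289, 0.0017, 0.00191, 8.5e-05 and 4.1e-06, in the order given). The epithelium array of P28, taken in another way, read 484 for Slc28a3 and 1140 for Slc14a1. Those values are far from the whole-cornea means of 1976 and 232 at that age.

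The arrays of an age were often far apart. At P28 replicate 3 read 877 for Slc28a3, against 2391 and 2659.7 on the others, and 773 for Slc34a2, against 2022 and 2270.4. At 2 months replicate 1, which was rich in lens and retina genes, read 1204 for Slc28a3, against 358 and 442. For Slc14a1, the 2 months arrays read 1680.1, 2224 and 1923, those of 18 months 115 and 122, and those of 1 year 715 and 1737. Markers moved within these ages too: 12 of 14 stromal, 5 of 7 endothelial, 6 of 9 retina and 1 of 12 epithelial markers were called. Among these ages the endothelial list, like Slc14a1, was highest at 2 months and lowest at 18 months: its median log2 value was 7.84 to 8.93 at P28, 10.17 to 10.87 at 2 months, 7.77 to 8.84 at 6 months, 9.31 to 10.17 at 1 year, 6.87 to 7.33 at 18 months and 7.41 to 9.08 at 2 years. Its summed intensity was 11120 to 14475 at 2 months and 4505 to 4679 at 18 months. The summed intensity of the stromal list was 22906 to 26476 at P28, 21693 to 30318 at 2 months, 6381 to 10901 at 6 months, 15268 to 20837 at 1 year, 6105 to 8083 at 18 months and 4811 to 14569 at 2 years. The stromal list, like Slc14a1 and the endothelial list, was thus higher at 2 months and 1 year than at 6 and 18 months. The epithelial list lay at 12.68 to 12.77, 12.00 to 12.14, 12.06 to 12.36, 11.99 to 12.10, 12.58 to 12.70 and 12.60 to 12.69 at these ages. The part of these cells in the carriers' values was not tested.

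**Figure D4:**
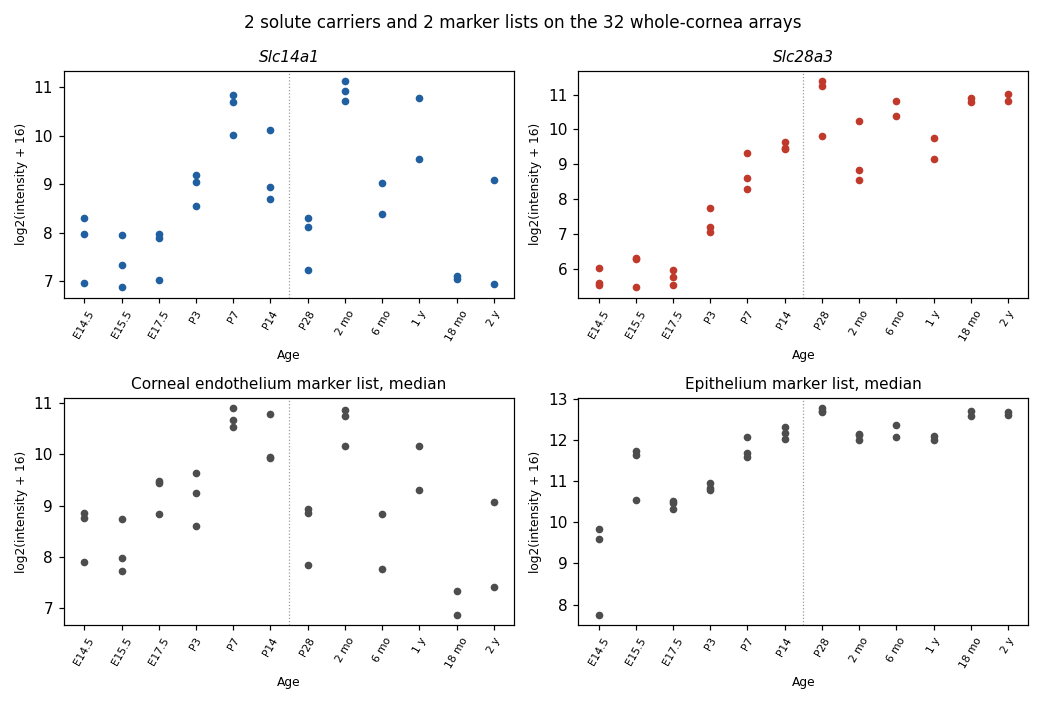
Slc14a1 and Slc28a3 (top) and the medians of 7 corneal endothelium and 12 epithelium markers (bottom) as log2(intensity + 16) against age; points are arrays, and the dotted line stands where the 8 unnamed probe sets divide the arrays. Slc14a1 and the endothelial median are high at P7 and 2 months and low at 18 months, and Slc28a3 and the epithelial median are high at P28, 18 months and 2 years. At 6 months the mean of Slc28a3 is also above that of 2 months, while the epithelial median, 12.06 to 12.36, overlaps the 12 to 12.14 of 2 months. The stromal list, not drawn, was also lower at 18 months than at 2 months.

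Other members called within the later ages included Slc24a1, an exchanger of sodium for calcium and potassium in rod photoreceptors. It read 842 on 6 months replicate 1, the array with the highest retina list, and 416 on 2 months replicate 2, also rich in retina genes. The other 12 arrays from P28 on read 145 to 374, and they include 2 months replicate 1, which was rich in retina genes too. Slc18b1, a vesicular polyamine carrier, read 1269 and 1313 at 18 months and 485 to 990.2 on the other arrays of these ages. Slc25a48 had means of 1144 ± 539 at P28 (SD, n = 3), 295 ± 63.6 at 1 year and 1259 ± 31.9 at 2 years (n = 2 each).

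Old adults, the mean of 1 year, 18 months and 2 years, were set against young adults, the mean of 2 and 6 months. Replicates 1 and 2 of 2 months and of 6 months were rich in lens or retina genes, and no array of the old ages was. Without them only 2 months replicate 3 is left on the young side, so carried-over tissue cannot be told apart from age in this comparison. There 2 members were called, both lower (1.01%, against 0.677% of all genes; higher 0.123%, lower 0.554%). They are named here because they were the only ones. Slc38a1 read 497, 739 and 508 at 2 months and 255 and 182 at 6 months, against 278 and 424 at 1 year, 28.4 and 55.6 at 18 months and 50.3 and 132 at 2 years. The difference was -1.55 (SE 0.23, adjusted p = 4.6e-04), and the arrays overlapped through those of 1 year and 6 months. Slc14a1, whose values stand above, gave -1.41 (SE 0.35, adjusted p = 0.0259) with overlap, and was lost in 7 of the fits that left out 1 array, namely 2 months replicate 2, 6 months replicates 1 or 2, 1 year replicate 1, 18 months replicates 1 or 2 or 2 years replicate 1 (adjusted p between 0.0524 and 0.111). Against 6 months alone limma called 0 members, with 26 of 198 at an unadjusted p under 0.05 (13.1%, against 11% of all genes), and gave -0.88 (adjusted p = 0.244) for Slc38a1 and -0.30 (adjusted p = 0.88) for Slc14a1. Against 2 months alone it called 5 (2.22% of all genes). Of the endothelial markers 2 of 7 fell between young and old adults (median -1.10), as did 4 of 9 retina markers and 1 of 14 stromal markers.

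The 2 layer arrays have no replicates, so no test was made, and the epithelium of P28 and the stroma of P7 differ in age and in how they were taken, which cannot be told apart from the layer. Of 163 members above the median on either array 1 was past 4-fold on the scale with the offset of 16 (0.613%, higher in epithelium, against 1.69% of 10724 genes past it either way, 0.587% higher in epithelium and 1.1% higher in stroma), and the median difference was 0.04. Slc6a14 read 2128 in the epithelium and 493 in the stroma, a log2 difference of 2.08. Next came Slc19a2 with 1169.7 and 288 (1.96), Slc15a2 with 948 and 262 (1.79), Slc12a2 with 3888 and 1150 (1.74), Slc25a48 with 575 and 228 (1.28) and Slc28a3 with 484 and 194 (1.25). In the other direction Slc26a7 read 194 in the epithelium and 562 in the stroma (-1.46), Slc38a4 151 and 427 (-1.41), Slc39a10, a zinc importer, 597 and 1485 (-1.29), Slc1a3 305 and 692 (-1.14), Slc38a1 442 and 973 (-1.11) and Slc1a5, a glutamine and neutral amino acid carrier, 263 and 483 (-0.84).

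The separation of these arrays was partial. The stromal markers had a median difference of -2.10 with 7 of 14 past 4-fold, and Kera, the keratocyte proteoglycan keratocan, gave -4.31. Of 12 epithelial markers 4 were past 4-fold (median 1.02), and Krt12, the corneal keratin, still read 2185 on the stroma array. On that array 13 of 16 lens and 5 of 10 muscle genes were past 4-fold higher. Markers of the corneal endothelium were read on both arrays, with a median difference of -0.44 and 0 of 7 past 4-fold. Among them Col8a1 read 2000 on the epithelium and 1966 on the stroma array, and Car3 read 1770 and 2407. Whole corneas of P28 had means of only 475 for Col8a1 and 648 for Car3, while Alcam, with 2288 on the epithelium array, had 3355. The median intensities of the layer arrays, 318 and 321, also lay above those of the whole-cornea arrays (188 to 241). Layer values are thus not on the same footing as whole-cornea values, and the reason was not tested. The lowest intensities were 41.8 on the epithelium and 42.6 on the stroma array, and the effect of this floor on the ratios was not tested.

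**Figure D5:**
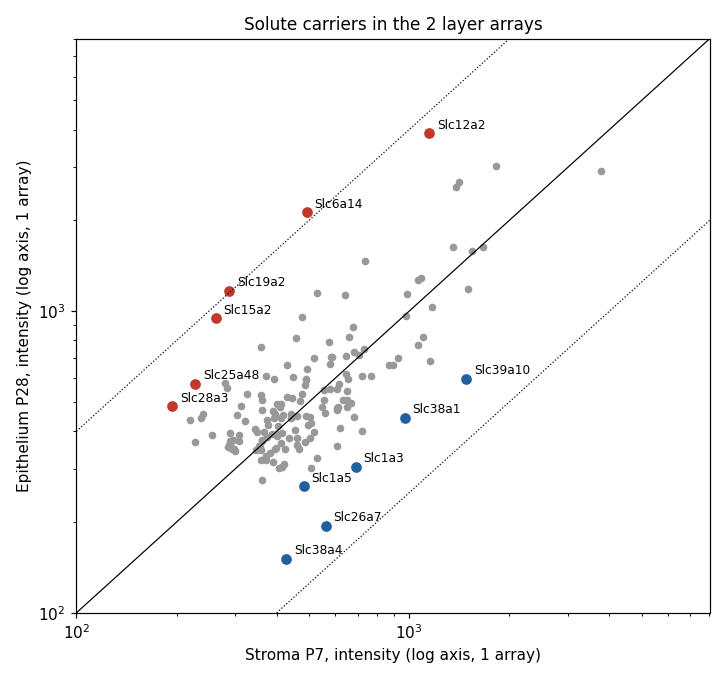
Intensity of the 163 members in the epithelium of P28 against that in the stroma of P7 (1 array each, both axes logarithmic); the solid line marks equal values and the dotted lines a 4-fold difference. Slc6a14 and Slc19a2 lie past a dotted line, and with the offset of 16 added Slc6a14 is at 4.22-fold and Slc19a2 at 3.9-fold; the labelled genes are the 6 with the largest difference in each direction.

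Genes that work with these carriers were read beside them. Of 12 genes of the sodium pump and of partner chains of carriers, 2 rose at E15.5, none was called at P14, 2 fell at P28 and 2 fell in the old adult, and 7 were called over the 12 ages. Of the 3 organic anion carriers of the Slco family that were tested, 1 rose at E15.5 and 2 were called over the 12 ages. Of 9 genes of the amino acid starvation response, 1 rose at E15.5 and 5 were called over the 12 ages.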

How the data were processed

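Intensity values of 35557 probe sets on 34 arrays were used as deposited. The submitters' processing notes name Affymetrix Expression Console 1.1 as well as PLIER for these linear intensities, which the authors computed. Platform annotation gave 1 gene symbol to 21789 probe sets, several to 1621 and none to 12147. A probe set with 1 symbol was kept where its intensity exceeded the median of all such probe sets on at least 2 of 32 whole-cornea arrays, and the kept probe set with the highest mean stood for its gene, which gave 12998 genes. For 8 members several probe sets were kept.

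Values were analysed as log2(intensity + 16) in limma 3.58.1 (R 4.3.3), with 1 mean per age, all 32 arrays sharing 1 estimate of the spread (20 residual degrees of freedom), and Benjamini-Hochberg adjustment over 12998 genes. Calls asked for an adjusted p under 0.05 and 1 log2 unit, which for an F-test is the range of age means. The fit was tested on simulated data. The members, classes and lists were chosen with earlier results of these data known. Genes described with values were, per comparison, up to 6 called members with the largest rise and 6 with the largest fall without overlap, the 8 with the highest F, the 6 with the largest layer difference each way, and the 3 with the highest F per class; others that are named were chosen after their values were seen. Arrays limit the precision by their number.

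Alternatives were the offset, filter, normalization, array weights, moderation, choice of probe sets, ages compared, arrays left out, and the replicate number as a block; a blocked fit on P14 and P28 and comparisons of old adults with 2 or 6 months alone were added after seeing the data. Deviations of same-numbered arrays from their age means correlated with r of 0.251, 0.141 and 0.164 between P14 and P28. Over 160 such pairs of arrays the median r was -0.0125, with a range from -0.435 to 0.4 and 28 pairs above 0.1. These values do not establish that the numbers pair arrays, at P14 and P28 or elsewhere, and the blocked fits rest on that assumption. Averaging the 2 months arrays labelled 1A and 1B, which may be related, was tried too. Sequences came from RefSeq (build GRCm38.p6).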

Additional observations from a re-analysis of the deposited data

How the results depend on the processing

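The number of called members stayed within 1.5 times under most alternatives. It was 8 in place of 13 for P14 against E15.5 with an offset of 64 (4.2% of all genes). With the adjusted p alone it was 69, 34 and 64 at the 3 age steps, 12 for old against young adults, and 158, 112 and 54 for the F-tests over 12 ages, E14.5 to P14 and P28 to 2 years, against 36.4%, 18.9%, 31.9%, 4.12%, 79.9%, 54.3% and 19.8% of all genes in the same order. E17.5 against E14.5 called 10 (7.27% of all genes) and 2 years against 2 months 11 (2.83%). Old adults against 2 months alone gave 5 (2.22%) and against 6 months alone 0 (0.138%, with 26 members at an unadjusted p under 0.05, limma). A fit on only the adult ages compared called 1 (0.539%). For the layers, 14 of 163 members were past 2-fold (7.99% of all genes above the median on either array). Past 4-fold were 2 with an offset of 1 (1.77%) and 0 with an offset of 64 (1.45%). Leaving out 1 array gave 13 to 22, 11 to 14 and 14 to 19 calls at the 3 steps, 1 to 3 for old against young adults, and 92 to 97, 41 to 49 and 16 to 26 for the F-tests. Over all 12998 genes it gave 1122 to 1546, 589 to 681 and 869 to 1071 calls at the 3 steps. For old against young adults it gave 53 to 125, and for the F-tests no such range over all genes is given here. With the replicate block the numbers were 16, 13, 16, 2, 90, 44 and 20, against 10.4%, 5.18%, 7.65%, 0.654%, 40.6%, 19.5% and 6.47% of all genes. In a blocked fit of the ages P14 and P28 alone 16 were called (7.98% of all genes), 16 of them also without the block. No value of a named gene changed sign while called. Of 897 values of named genes under other settings 28 lost the call and 1 gained it, and of 1278 with 1 array left out 25 lost it. Except where a step is built from other ages or fewer arrays, the cause was not tested. Precision differed between genes: the SE of an age step was 0.12 for Slc41a1 and 0.56 for Slc15a2, so a difference of 1 log2 unit was detectable in some genes and not in others.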
